A study of Arabidopsis thaliana and Lotus japonicus with 44 samples.

Results

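Line 308, an Arabidopsis line that expresses IPD3Min, was compared with the wild type Col-0 on 1/2 MS medium with the arbuscular mycorrhizal fungus (AMF) R. irregularis. The comparison was defined by the sample labels, with earlier results of these data known. It holds 8 of the 44 libraries of the study, 4 of each genotype. IPD3Min is the DNA-binding part of the transcription factor IPD3 of Medicago truncatula and is expressed from the Arabidopsis UBIQUITIN10 promoter, on a construct that also carries the mCherry marker. Line 308 is 1 homozygous line from 1 transformation event, and no line with an empty vector was sequenced in this comparison, so the effects of IPD3Min, of the rest of the construct and of its insertion site cannot be told apart here. Both groups were 6-week-old plants on plates, and were harvested 48 h after inoculation with about 200 spores a plant. For 1 library, RNA came from 5 seedlings that shared a plate. The same genotypes without AMF (4 libraries each), the same genotypes on low-nutrient (LN) medium with AMF (3 of line 308 and 5 of Col-0) and a second IPD3Min line, line 310 with AMF (3 libraries), serve below for values side by side. The counts of the construct were not analysed here.

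IPD3, known as CYCLOPS in Lotus, acts in host plants downstream of the calcium signal that fungal molecules set off in root cells, and it switches on genes for the entry of the fungus. Arabidopsis does not form this symbiosis and its lineage has lost IPD3 along with other genes of the pathway. The Arabidopsis genes described below are known for other functions, such as defence, specialised metabolism, hormone synthesis, photosynthesis and the timing of the day.

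Of 16925 transcripts tested, 415 (2.45%) were higher and 678 (4.01%) were lower in line 308 at an adjusted p under 0.05, together 6.46%. These are called transcripts in what follows, and every adjusted p is from edgeR's quasi-likelihood test with Benjamini-Hochberg adjustment over all transcripts tested. Most of the differences were modest. The median log2 fold change was 0.77 among the transcripts called higher and -0.68 among those called lower, and 137 and 182 transcripts, respectively, differed by more than 2-fold. The ranges of the libraries did not overlap for 406 of the 415 called higher and 642 of the 678 called lower, whereas among all transcripts the ranges were apart with line 308 higher for 6.48% and lower for 7.58%. Levels are given as CPM, the counts scaled to a common library total that was adjusted by TMM normalization. They are not scaled by transcript length and stand in the order of replicates 1 to 4. Errors of log2 fold changes are SE, with n = 4 per group.

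The 8 libraries held between 13185910 and 14328336 counts. Markers of endodermis, xylem, phloem, root tip, lateral root initiation and root epidermis were detected in both groups, with ranges of their summed CPM that overlapped for all 6 lists and ratios of line 308 to Col-0 between 0.819 and 1.13. Of 11 green tissue markers 7 were also tested, and 6 of these were called lower in line 308. A lower count can reflect fewer cells of a type or less RNA per cell, which cannot be told apart in pooled roots. The number of calls depended on single libraries. It fell to 230 higher and 352 lower without Col-0 replicate 3, and it rose to 697 higher and 902 lower without Col-0 replicate 1. In all 8 fits that each left out 1 library, 491 of the 1093 calls (44.9%) were made.

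**Figure D1:**
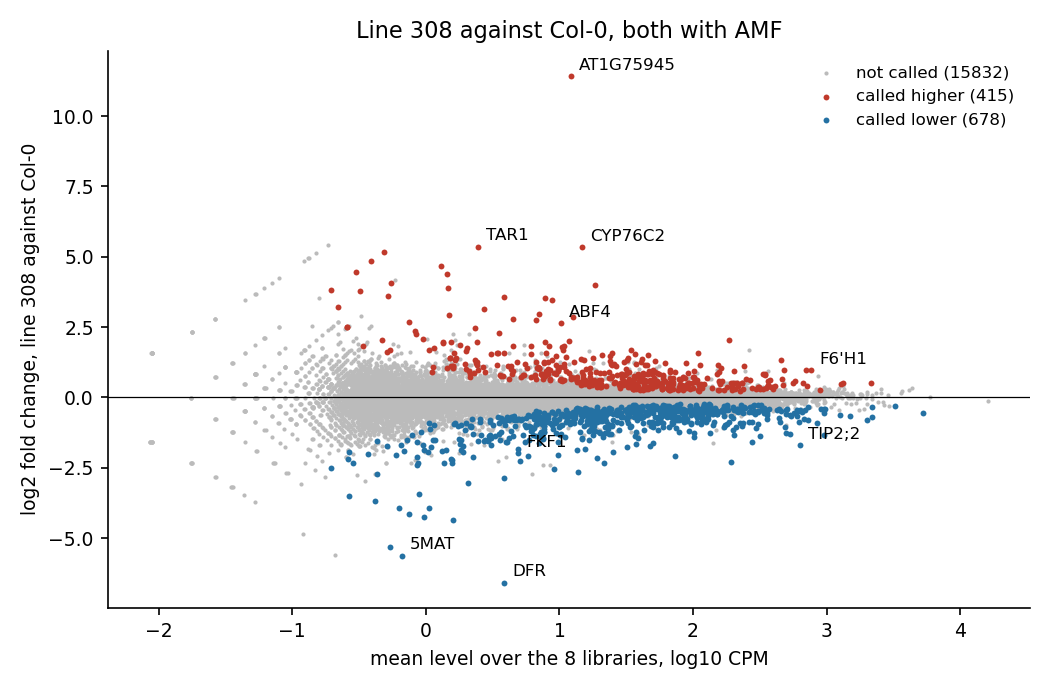
Each point is 1 transcript, placed by its mean level over the 8 libraries (log10 CPM) and its log2 fold change between line 308 and Col-0, with 415 transcripts called higher in red and 678 called lower in blue. Transcripts with no counts in the 8 libraries are not drawn, and the fitted value of AT1G75945, which has no counts in Col-0 with AMF, depends on the prior count of the fit.

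Promoter sequences of 7 genes that carry the results below are shown because the genes belong to groups with several called members (clock, anthocyanin and late embryogenesis abundant genes) or because the gene was called higher in both IPD3Min lines (CYP76C2). Only the motif named below for each gene is marked, and the 7 were picked because they hold a match to it. Called genes without that motif in the 250 bases before their start are not shown. Among them are ELF3 of the clock genes (evening element) and PAP1, TT19, 5MAT and UGT75C1 of the anthocyanin genes (G-box). Each sequence runs 5′ to 3′ over the 250 bases before the annotated start of the gene, from the RefSeq sequence of build TAIR10.1. It is in lower case with the letters matched to that motif in capitals. Matches to the other motifs are present in some of these sequences and are not marked.
FKF1 (chr1:25508389-25508638, plus strand): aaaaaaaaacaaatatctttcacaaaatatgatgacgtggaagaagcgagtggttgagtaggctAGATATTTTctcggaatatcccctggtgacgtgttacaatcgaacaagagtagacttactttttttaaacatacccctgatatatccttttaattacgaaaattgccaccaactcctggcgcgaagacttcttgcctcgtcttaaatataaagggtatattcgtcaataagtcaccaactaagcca
PRR5 (chr5:8358547-8358796, minus strand): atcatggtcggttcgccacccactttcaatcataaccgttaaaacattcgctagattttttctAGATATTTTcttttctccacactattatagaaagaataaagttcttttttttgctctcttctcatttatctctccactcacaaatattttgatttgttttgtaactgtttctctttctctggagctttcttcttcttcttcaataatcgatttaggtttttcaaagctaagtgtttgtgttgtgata
TOC1 (chr5:24674713-24674962, plus strand): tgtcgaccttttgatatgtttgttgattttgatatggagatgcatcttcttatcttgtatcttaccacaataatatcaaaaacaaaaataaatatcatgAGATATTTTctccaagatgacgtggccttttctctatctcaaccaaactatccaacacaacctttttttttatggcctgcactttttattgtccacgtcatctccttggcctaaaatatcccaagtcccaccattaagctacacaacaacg
DFR (chr5:17166033-17166282, minus strand): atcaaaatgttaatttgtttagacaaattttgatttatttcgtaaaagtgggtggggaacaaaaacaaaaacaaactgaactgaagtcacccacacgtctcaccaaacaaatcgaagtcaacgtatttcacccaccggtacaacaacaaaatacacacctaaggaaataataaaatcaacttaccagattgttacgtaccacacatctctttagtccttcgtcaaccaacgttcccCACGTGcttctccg
LEA4-5 (chr5:2090431-2090680, minus strand): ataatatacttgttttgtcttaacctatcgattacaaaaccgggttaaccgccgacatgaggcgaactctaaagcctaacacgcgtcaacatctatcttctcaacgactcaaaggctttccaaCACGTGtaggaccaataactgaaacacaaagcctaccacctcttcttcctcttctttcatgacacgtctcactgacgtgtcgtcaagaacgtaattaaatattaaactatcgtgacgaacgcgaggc
AT3G02480 (chr3:511970-512219, plus strand): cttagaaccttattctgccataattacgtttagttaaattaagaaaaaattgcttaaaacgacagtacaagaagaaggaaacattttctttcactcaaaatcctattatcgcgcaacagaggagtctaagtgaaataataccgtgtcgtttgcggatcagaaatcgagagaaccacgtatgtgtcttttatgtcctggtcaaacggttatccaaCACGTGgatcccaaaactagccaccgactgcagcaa
CYP76C2 (chr2:18781974-18782223, minus strand): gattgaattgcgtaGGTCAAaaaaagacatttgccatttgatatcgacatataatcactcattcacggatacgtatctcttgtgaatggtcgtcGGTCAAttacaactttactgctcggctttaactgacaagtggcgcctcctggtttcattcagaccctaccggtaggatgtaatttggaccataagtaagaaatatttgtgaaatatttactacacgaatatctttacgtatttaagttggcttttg

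In FKF1, PRR5 and TOC1 the capitals mark the evening element, AAAATATCT, which stands there on the opposite strand. In DFR, LEA4-5 and AT3G02480 they mark the G-box, CACGTG, and in CYP76C2 they mark 2 W-boxes (TTGACC or TTGACT, here on the opposite strand). These are letter matches and were not tested as binding sites. Over the window from 250 bases before to 50 bases after the start, searched on both strands, the G-box was present in 17.4% of the 413 promoters of genes called higher, in 9.02% of the 676 of genes called lower and in 7.91% of all 16401 tested genes. The W-box was present in 41.4%, 25.7% and 33.4% of the same sets, respectively, and the evening element in 2.42%, 4.59% and 2.77%. The phosphate motif P1BS (GNATATNC) was near the background in both, at 6.30% and 7.10% against 6.45%. Among the light-harvesting and photosystem genes called lower, the G-box was present in 10 of 28 promoters (35.7%). Of the 49 promoters of tested genes with the annotated process photosynthesis, called or not, 28.6% held a G-box. Of the 29 of these that were called lower, 24.1% did, so the G-box was not more frequent in the called genes of this process.

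The largest difference was in AT1G75945, an uncharacterised protein-coding gene (chr1:28515245-28515916, minus strand). Its level was 25, 25.2, 23.3 and 24.2 CPM in line 308, and no count was recorded in any of the 4 Col-0 libraries. Set against a floor of 3 counts over the Col-0 group, line 308 was at least 457-fold higher (adjusted p = 2.33e-06). The gene was at 19.7 to 26.1 CPM in line 310 with AMF, and it was at 25.5 to 30.3 CPM in line 308 without AMF. Among the other Col-0 libraries used here it had 84 counts (6.02 CPM) in replicate 2 without AMF and 21 counts (1.43 CPM) in replicate 2 on LN medium, and 0 in the rest.

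CYP76C2 (chr2:18779321-18781973, minus strand) encodes a cytochrome P450 of a family that oxidises monoterpene alcohols. It stood at 22.3, 38.3, 21.9 and 32.7 CPM in line 308 and at 0.208, 0.559, 1.15 and 0.913 CPM in Col-0. Its log2 fold change was 5.34 ± 0.33 (adjusted p = 2.52e-05), and the lowest line 308 library was far above the highest Col-0 library. Its neighbour CYP76C4 was called higher too, with a log2 fold change of 1.79 ± 0.37 (adjusted p = 0.016), though this call was made in 5 of the 8 fits that left out a library. These were the only 2 of the 4 genes of the CYP76C cluster that were tested.

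Genes of auxin synthesis were higher at 2 successive steps. TAR1, a tryptophan aminotransferase of the same step as TAA1, was at 4.40, 6.59, 4.40 and 3.74 CPM in line 308 and at 0, 0, 0.0719 and 0.380 CPM in Col-0, a log2 fold change of 5.36 ± 0.54 (adjusted p = 2.92e-04). YUC9, a flavin monooxygenase of the following step, was at 23.4, 26, 21.6 and 20.3 CPM against 11.8, 10.9, 11 and 10.4 CPM (log2 fold change 1.05 ± 0.10, adjusted p = 2.86e-04). Both were above the Col-0 range in every library of line 308. The other 16 tested genes of the 18 on the list for auxin synthesis, transport and conjugation were not called, TAA1 and the transporters PIN3 and AUX1 among them. The median log2 fold change of the list was -0.04, beside 0.0 over all transcripts tested. The 2 genes called higher made 11.1% of the list, where 2.52% of all tested genes were higher.

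**Figure D2:**
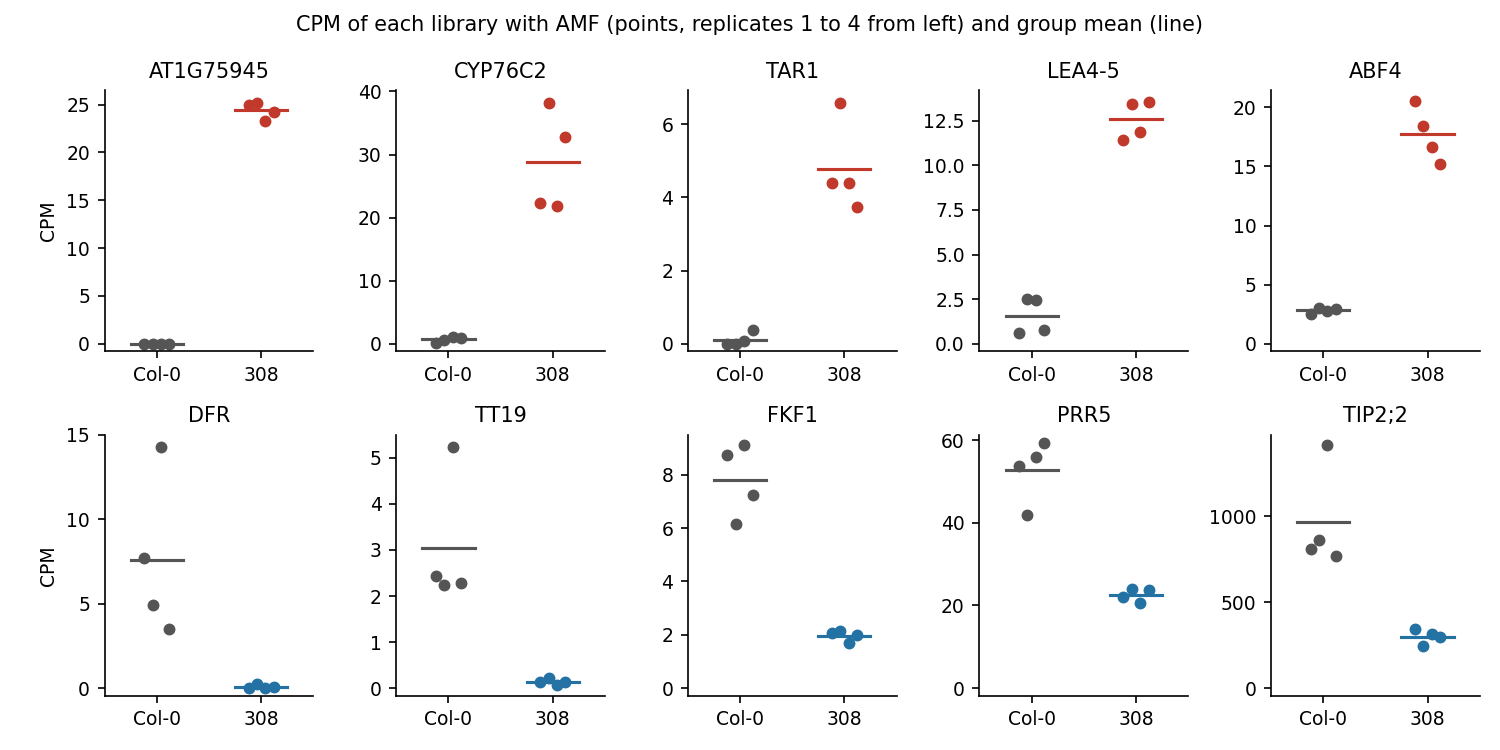
Each panel gives the CPM of 1 transcript in the 4 Col-0 and 4 line 308 libraries with AMF, with the group mean as a line, on an axis that starts at 0. In all 10 panels the points of line 308 lie apart from those of Col-0, above it for AT1G75945, CYP76C2, TAR1, LEA4-5 and ABF4 and below it for DFR, TT19, FKF1, PRR5 and TIP2;2.

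Several genes that are best known from seeds or from water deficit were among the steepest increases. LEA4-5, a late embryogenesis abundant (LEA) protein that accumulates in dry tissue, was at 11.4, 13.5, 11.8 and 13.5 CPM in line 308 against 0.624, 2.52, 2.44 and 0.761 CPM in Col-0 (log2 fold change 2.97 ± 0.34, adjusted p = 6.05e-04). AT3G02480, annotated to the same family, was at 13, 14.5, 17 and 13.1 CPM against 0.970, 1.26, 1.65 and 0.989 CPM (3.55 ± 0.19, adjusted p = 5.66e-06). Of 58 tested genes annotated as LEA proteins 5 were called higher and 1 lower, where 2.52% of all 16438 tested genes were called higher and 4.12% lower. SCPL19, which makes the seed ester sinapine, had a log2 fold change of 4.38 ± 0.51 (adjusted p = 6.81e-04), from 0 to 0.350 CPM in Col-0 to 2.55 to 3.12 CPM in line 308. BETA-TIP, a water channel of the vacuole of seeds, had 2 counts over the Col-0 libraries and 34 over those of line 308, a ratio of 16.9 (95% counting interval 4.33 to 145). Its level in line 308 was low, 0.213 to 1.28 CPM, and the call was not made in all 8 fits that left out a library.

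The response to abscisic acid, the hormone of water deficit, did not differ in 1 direction. ABF4 encodes a bZIP factor that activates such genes, and its transcript AT3G19290.5 was at 20.5, 18.4, 16.7 and 15.2 CPM against 2.49, 3.01, 2.80 and 2.97 CPM (log2 fold change 2.65 ± 0.14, adjusted p = 5.66e-06). This is 1 of 5 annotated transcripts of ABF4, and read pairs that overlapped more than 1 transcript were not counted. On the list of 13 tested drought and abscisic acid markers, 2 were called higher (LEA4-5 and RD22) and 3 lower (KIN1, KIN2 and the phosphatase ABI1), with a median log2 fold change of -0.43. These are 15.4% and 23.1% of the list, where 2.52% of all tested genes were higher and 4.12% lower. KIN1, a cold and drought-induced gene, was at 3.55, 2.55, 6.66 and 3.17 CPM in line 308 and 6.72, 13.3, 11.6 and 12.6 CPM in Col-0, with ranges that nearly met (-1.47 ± 0.30, adjusted p = 0.015). RD26, a NAC factor of the same pathway, was lower as well (-1.0 ± 0.23, adjusted p = 0.024).

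4 genes of starch, sucrose, malate and respiration that were called higher are given here, chosen after their values were seen. GBSS1, the starch synthase bound to starch granules, was at 14.1, 17.6, 22.3 and 13.8 CPM against 4.02, 6.01, 5.39 and 3.80 CPM (log2 fold change 1.81 ± 0.20, adjusted p = 4.72e-04). SUS3, a sucrose synthase, was at 210, 233, 231 and 201 CPM against 63.9, 110, 117 and 132 CPM (1.05 ± 0.18, adjusted p = 0.0060). Both were higher in every library of line 308 than in any of Col-0. NADP-ME1, a malic enzyme, differed by 3.57 ± 0.35 on the log2 scale (adjusted p = 2.86e-04), and NDA1, an alternative NAD(P)H dehydrogenase of mitochondria, by 2.77 ± 0.22 (adjusted p = 1.13e-04). None of 7 tested genes on the list of mitochondrial stress was called.

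The 2 called members of the 8 tested SWEET sugar transporters went in opposite directions, 12.5% in each, where 2.52% of all tested genes were higher and 4.12% lower. SWEET15 was higher (log2 fold change 2.68 ± 0.47, adjusted p = 0.0078), at 1.2 to 1.42 CPM in line 308 and 0 to 0.416 CPM in Col-0. SWEET12, which exports sucrose, was at 4.90, 2.98, 3.26 and 4.02 CPM in line 308 and at 10.2, 17, 25.9 and 41.3 CPM in Col-0 (-2.63 ± 0.38, adjusted p = 0.0025).

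Transcription factors of the NAC family were called in both directions, 4 higher (6.35%) and 3 lower (4.76%) of 63 tested, where 2.52% of all tested genes were higher and 4.12% lower. NAC032 was at 154, 162, 151 and 159 CPM in line 308 and 46.3, 81.4, 66.5 and 86.0 CPM in Col-0 (log2 fold change 1.16 ± 0.16, adjusted p = 0.0016). CUC1, a factor of organ boundaries in shoots, was at 2.56, 5.03, 4.18 and 3.67 CPM against 0.693, 1.4, 0.934 and 0.837 CPM (1.99 ± 0.28, adjusted p = 0.0019). VND7, a switch of vessel formation in xylem, was higher at a low level (0.423 to 0.923 CPM against 0.139 to 0.359 CPM, adjusted p = 0.040) and was called in 1 of the 8 fits that left out a library. The other 4 tested xylem markers were not called.

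Among the 10 steepest increases were 5 further transcripts with low CPM. TET4, a tetraspanin of the cell membrane, had 43 counts over line 308 and 1 over Col-0, a ratio of 42.8 (95% counting interval 7.28 to 1728). APK3, an adenylylsulfate kinase that supplies sulfate for secondary metabolites, had 54 counts and 1 count for its transcript AT3G03900.2, a ratio of 53.7 (9.24 to 2160.0), and HSD6, a hydroxysteroid dehydrogenase, had 59 and 3, a ratio of 19.6 (6.37 to 97.6). AT2G36770, a glycosyltransferase, was at 0.852, 2.62, 0.922 and 5.64 CPM against 0.139, 0, 0.216 and 0 CPM (log2 fold change 4.68 ± 0.91, adjusted p = 0.013), a wide spread within line 308. AT4G05380, a nucleoside triphosphatase, was at 1.85, 3.19, 2.98 and 2.96 CPM against 0.346, 0.14, 0.144 and 0.0761 CPM (3.87 ± 0.37, adjusted p = 2.70e-04). Cytochrome P450 enzymes were called in both directions, 10 higher (8.20%) and 13 lower (10.7%) of 122 tested, where 2.52% of all tested genes were higher and 4.12% lower. CYP705A3 (2.46) and CYP702A3 (1.59) came after CYP76C2 and CYP76C4 among those higher.

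Among defence genes, a small number were higher. Of 45 tested WRKY factors 5 were called higher (11.1%) and 0 lower, where 2.52% of all tested genes were called higher and 4.12% lower. WRKY59 was at 10.4, 14.5, 11.1 and 10.2 CPM in line 308 and 3.74, 1.05, 0.862 and 1.07 CPM in Col-0 (log2 fold change 2.77 ± 0.38, adjusted p = 0.0017). WRKY33, which controls the response to necrotrophic fungi, was at 210, 218, 201 and 266 CPM against 176, 155, 161 and 141 CPM (0.50 ± 0.10, adjusted p = 0.014). Of 53 tested class III peroxidases of the cell wall 7 were higher (13.2%) and 1 was lower (1.89%), beside the same shares of all tested genes. Prx37 was at 349, 301, 329 and 340 CPM against 211, 117, 125 and 151 CPM (1.13 ± 0.16, adjusted p = 0.0020). Only 2 of the 5 WRKY factors and 3 of the 7 peroxidases were called in all 8 fits that left out a library.

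AT4G33710, a secreted protein of the family of PR1, was among the 10 steepest increases. Its level was 46.1, 45.3, 34.7 and 12.4 CPM in line 308 and 0.554, 3.36, 2.66 and 2.13 CPM in Col-0 (log2 fold change 3.99 ± 0.48, adjusted p = 8.14e-04). Replicate 4 of line 308 was the lowest of its group and was still above all of Col-0. PROPEP2, the precursor of a danger peptide, differed by 1.24 ± 0.19 (adjusted p = 0.0031), and the germin-like protein GLP9 by 1.32 ± 0.23 (adjusted p = 0.0075). The chitin-binding protein PR4, a jasmonate and ethylene response gene, was at 783, 660, 719 and 606 CPM against 378, 459, 528 and 466 CPM (0.60 ± 0.11, adjusted p = 0.0091). The lectin gene AT1G78850, at 2417, 2401, 2889 and 2399.8 CPM against 1252, 1873, 1962 and 1937 CPM (0.52 ± 0.14, adjusted p = 0.044), had the highest CPM of those called higher and was called in 1 of the 8 fits.

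The lists for hormone and immune pathways held at most 2 calls in a direction, where 2.52% of all tested genes were called higher and 4.12% lower. For salicylic acid (SA), the hormone of defence against biotrophs, 1 of 18 tested synthesis and regulator genes was higher (SARD4) and 1 was lower (EPS1), and 2 of 12 response genes were higher (WRKY51 and UGT76B1). None of these 4 was called in all 8 fits that left out a library. The SA response genes had a median log2 fold change of -0.43, although the only calls were increases. The thaumatin-like protein PR5 was at 93.7, 62.1, 100 and 19.5 CPM in line 308 and 332, 280, 131 and 112 CPM in Col-0, groups that did not overlap, with -1.63 ± 0.47 (adjusted p = 0.065). For jasmonate, 2 of 12 synthesis genes were higher (LOX4 and AOC4), and of 14 response genes 1 was higher (PR4) and 1 lower, the tyrosine aminotransferase TAT3 (-1.73 ± 0.41, adjusted p = 0.030). For pattern immunity, 2 of 20 were higher (WRKY33 and WRKY29). The shares called higher were 16.7% for SA response, 16.7% for jasmonate synthesis and 10% for pattern immunity, from 2 genes each. The resistance gene RPP4 was lower (-1.45 ± 0.37, adjusted p = 0.041) and was called in 1 of the 8 fits, whereas 3 others of the 44 tested TIR-NBS-LRR genes were higher, none of them in all 8 fits.

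Coumarins are phenolic compounds that roots secrete to mobilise iron and that act on microbes. F6'H1, the enzyme that opens their synthesis, was at 896, 1006, 962 and 1164 CPM in line 308 and at 523, 610, 497 and 431 CPM in Col-0 (log2 fold change 0.97 ± 0.11, adjusted p = 6.94e-04). Every library of line 308 was above all of Col-0. C4H, which supplies the phenylpropanoid pathway, was at 1520, 1612, 1511 and 1589 CPM against 1018, 1216, 1149 and 981 CPM (0.51 ± 0.08, adjusted p = 0.0042). NAS2, which makes the metal chelator nicotianamine, was at 47.1, 71.3, 47.2 and 41.6 CPM against 17, 29.2, 21.1 and 23.8 CPM (1.19 ± 0.19, adjusted p = 0.0045). FER1, the iron store ferritin, was also higher (0.80 ± 0.16, adjusted p = 0.014), while BHLH101, a factor of iron deficiency, was lower (-1.50 ± 0.33, adjusted p = 0.023). The list for iron uptake and coumarins had 3 higher (15%) and 1 lower (5%) of 20 tested genes, where 2.52% of all tested genes were higher and 4.12% lower. The transporter IRT1 (0.65, adjusted p = 0.054) and its regulator FIT (0.23, adjusted p = 0.71) were not called.

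Photosynthesis had more genes called lower than any other of the 87 annotated processes examined. Of 14 tested chlorophyll-binding proteins of the light-harvesting complexes 13 were lower and none was higher, of 10 photosystem I subunits 9 were lower and of 9 photosystem II subunits 6 were lower. Of all 50 tested genes with the annotated process photosynthesis, 30 (60%) were lower and 0 were higher, where 4.54% of the 9067 genes with any annotated process were lower. The median log2 fold change of these 50 genes was -0.79.

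CAB1, a light-harvesting protein of photosystem II, was at 388, 703, 462 and 592 CPM in line 308 and 1219, 1453, 1330 and 1433 CPM in Col-0 (log2 fold change -1.34 ± 0.16, adjusted p = 7.94e-04). CAB1, LHCB1.1 and CAB3 are near-identical neighbouring copies on chromosome 1 (-1.34, -1.88 and -1.63), and LHB1B1 and LHB1B2 are a similar pair on chromosome 2, so that the share of reads assigned to each copy is uncertain. PSAD1, a subunit of photosystem I that has the related gene PSAD-2, was at 29.6, 42.9, 35.5 and 33.3 CPM against 67.2, 66.8, 64.5 and 66.1 CPM (-0.91 ± 0.10, adjusted p = 5.64e-04). PSBR of photosystem II was at 65.2, 57.1, 62.5 and 56.2 CPM against 115, 143, 149 and 169 CPM (-1.25 ± 0.11, adjusted p = 1.95e-04). GAPA, a chloroplast enzyme of the Calvin cycle, was at 32.2, 41.2, 48.6 and 43 CPM against 70.2, 74.8, 79.0 and 83.9 CPM (-0.90 ± 0.11, adjusted p = 0.0012). In each of these genes the highest library of line 308 lay below the lowest of Col-0. SIG4, a sigma factor of the chloroplast RNA polymerase, had 1 count over the line 308 libraries and 58 over the Col-0 libraries, a ratio of 58.3 (95% counting interval 10.1 to 2343).

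The 7 tested markers on the list for green tissue are photosynthesis genes, and 6 of them were lower. Their summed level was 372, 484, 442 and 427 CPM in line 308 and 716, 755, 827 and 831 CPM in Col-0, a ratio of 0.552. None of the 7 was at 0 in these libraries, whereas RBCS1A, RBCS3B, LHCA1 and RCA of the same list were not among the transcripts tested. In line 310 with AMF the sum ran from 374 to 701 CPM, also below the Col-0 range. Without AMF it ran from 334 to 712 CPM in line 308 and from 573 to 722 CPM in Col-0, which overlapped. How far green cells in the sampled roots, rather than RNA per cell, took part in these differences was not tested.

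**Figure D3:**
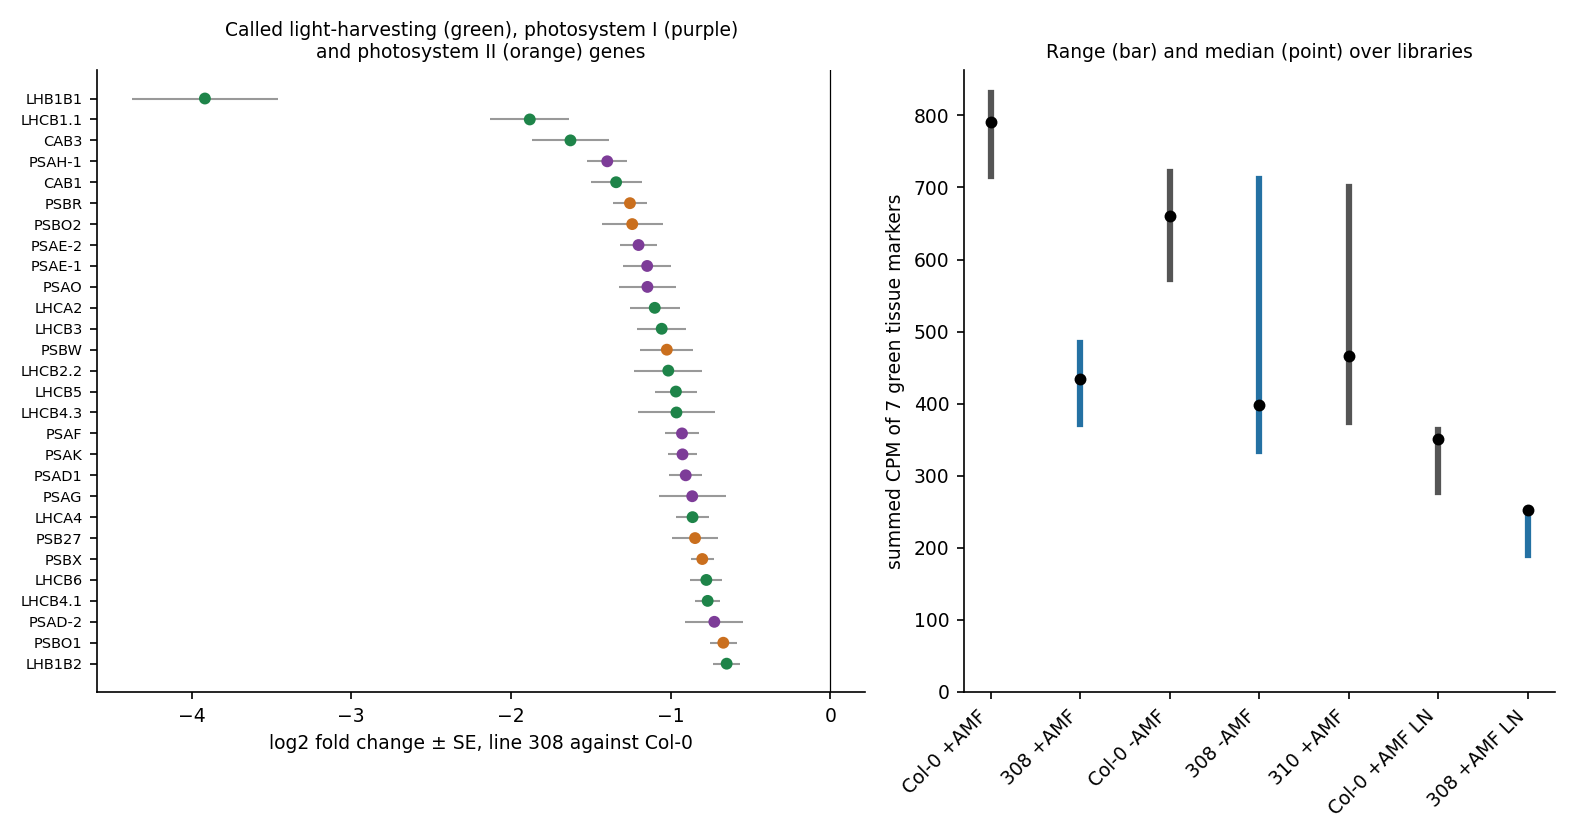
The left panel gives the log2 fold change ± SE between line 308 and Col-0, both with AMF, of the 28 called light-harvesting, photosystem I and photosystem II genes, all below 0. The right panel gives the summed CPM of 7 green tissue markers per group, as range and median over libraries, which is 372 to 484 in line 308 with AMF and 716 to 831 in Col-0 with AMF.

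Genes of the late steps of anthocyanin synthesis and its control were called lower, among them DFR, which had the steepest decrease of all called transcripts. Of 14 tested flavonoid and anthocyanin genes 6 were lower (42.9%) and none was higher, where 4.12% of all tested genes were lower. All 6 act after the branch to anthocyanins or control it. DFR, which commits flavonoids to anthocyanins, was at 0, 0.213, 0 and 0.0705 CPM in line 308 and at 7.69, 4.89, 14.3 and 3.5 CPM in Col-0 (log2 fold change -6.58 ± 0.72, adjusted p = 4.82e-04). TT19, which carries anthocyanins to the vacuole, was at 0.142, 0.213, 0.0709 and 0.141 CPM against 2.43, 2.24, 5.25 and 2.28 CPM (-4.34 ± 0.46, adjusted p = 4.02e-04). The glucosyltransferase UGT75C1 was at 0.426, 1.63, 0.922 and 0.705 CPM against 6.31, 4.54, 10.2 and 5.86 CPM (-2.86 ± 0.36, adjusted p = 0.0011). The malonyltransferase 5MAT had 1 count over line 308 and 73 over Col-0, a ratio of 73.4 (95% counting interval 12.8 to 2938). In each of these 4 genes every library of line 308 was below the lowest of Col-0.

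PAP1, the MYB factor that switches this pathway on, was at 0, 0.142, 0.0709 and 0.0705 CPM in line 308 and at 0.554, 1.68, 2.16 and 0.380 CPM in Col-0 (log2 fold change -3.92 ± 0.78, adjusted p = 0.014). The early genes of flavonoid synthesis, which are shared with flavonols, were not called, nor was the glucosyltransferase UGT78D2 (0.0014, adjusted p = 0.99). CHS, the entry enzyme, had -0.58 (adjusted p = 0.29), CHI -0.16, F3H -0.21 and the flavonol synthase FLS1 0.18. The G-box was found in 6 of the 14 promoters of this list, called or not, 42.9% against 7.91% of all tested genes. The one in DFR starts 14 bases before the gene. The 250 bases before the start of PAP1, TT19, 5MAT and UGT75C1, which were also called lower, held none.

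Of the evening genes of the circadian clock and of day length, 4 of 16 tested were lower (25%), where 4.12% of all tested genes were lower. FKF1, an F-box blue light receptor of the day-length response, was at 2.06, 2.13, 1.70 and 1.98 CPM in line 308 and at 8.73, 6.15, 9.13 and 7.23 CPM in Col-0 (log2 fold change -1.99 ± 0.18, adjusted p = 2.03e-04). PRR5, a pseudo-response regulator, was at 22, 23.9, 20.6 and 23.7 CPM against 53.7, 42, 56 and 59.4 CPM (-1.23 ± 0.11, adjusted p = 2.07e-04). TOC1, its relative, was at 74.3, 70.2, 70.8 and 76.4 CPM against 98.4, 87.7, 118 and 112 CPM (-0.51 ± 0.09, adjusted p = 0.0086). None of these 3 ranges overlapped, and each call was made in all 8 fits that left out a library. ELF3 of the evening complex was lower by a smaller amount (-0.42 ± 0.10, adjusted p = 0.026) and was called in 3 of the 8 fits.

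These 4 made 25% of the list, none of the list was higher, and its median log2 fold change was -0.30. GIGANTEA (GI), the partner of FKF1, was at 150, 155, 162 and 152 CPM against 176, 167, 183 and 162 CPM and was not called (-0.15 ± 0.06, adjusted p = 0.19). ELF4 (-1.09, adjusted p = 0.067) was not called either. Of 8 listed morning genes 4 were tested and none of these was called, CCA1 among them (-0.04). Their tested transcripts were at low levels, CCA1 at 2.99 CPM in line 308 and 3.09 CPM in Col-0 and the others lower. Read pairs that overlapped more than 1 transcript were not counted, so these values cannot show that the morning genes were alike. CCL, a gene whose RNA stability follows the clock, was lower, at 20.6, 22.5, 27.3 and 18.5 CPM against 58.3, 61.6, 77.7 and 95.3 CPM (-1.72 ± 0.17, adjusted p = 2.86e-04). Of 13 tested B-box factors 3 were lower (23.1%), where 4.12% of all tested genes were lower, with BBX15 at -1.52 ± 0.19 (adjusted p = 0.0011). The evening element was found in 5 of the 16 promoters of the list, 31.2%, FKF1, PRR5 and TOC1 included, against 2.77% of all tested genes. Libraries were collected between 4 and 6 h after lights on, and the hour of each library is not given in the sources used here.

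Arabidopsis roots make specialised triterpenes from gene clusters that are expressed as units. Of 7 tested genes of the marneral and thalianol clusters and their relatives 3 were lower (42.9%), where 4.12% of all tested genes were lower. MRN1, marneral synthase, was at 0.852, 0.213, 1.06 and 1.2 CPM in line 308 and 1.73, 3.57, 4.6 and 4.72 CPM in Col-0 (log2 fold change -2.12 ± 0.42, adjusted p = 0.014). CYP705A12 of the same cluster was at 7.81, 5.10, 7.66 and 6.70 CPM against 12.7, 28.4, 31.5 and 25.3 CPM (-1.84 ± 0.26, adjusted p = 0.0019). THAD of the thalianol cluster was at 100, 96.3, 147 and 115 CPM against 115, 349, 436 and 269 CPM (-1.35 ± 0.32, adjusted p = 0.029), with Col-0 replicate 1 inside the range of line 308, and it was called in 1 of the 8 fits. THAS1, thalianol synthase, was not called (-1.06, adjusted p = 0.15). CYP716A2, a P450 of a triterpene-oxidising family, was lower by 2.06 ± 0.33 (adjusted p = 0.0046).

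Of 9 tested TIP channels of the vacuole membrane 3 were lower and 1 was higher, where 4.12% of all tested genes were lower. TIP2;3 was at 79.7, 43.4, 67.4 and 69.3 CPM in line 308 and 163, 338, 477 and 292 CPM in Col-0 (log2 fold change -2.29 ± 0.29, adjusted p = 0.0011). TIP2;2 was at 345, 243, 313 and 299 CPM against 811, 865, 1418 and 768 CPM (-1.69 ± 0.19, adjusted p = 5.31e-04), and AT3G26520, listed as TIP2, differed by -0.79 ± 0.14 (adjusted p = 0.0080). All 3 calls were made in the 8 fits that left out a library. The increase was that of BETA-TIP, which was not called in all of these fits. In the plasma membrane, 1 of 6 tested PIP aquaporins was lower, PIP2;3 (-0.90 ± 0.13, adjusted p = 0.0019). OCT1, a carrier of organic cations, was at 21.4, 32.7, 35.8 and 23.1 CPM against 47.7, 178, 147 and 104 CPM (-2.08 ± 0.34, adjusted p = 0.0051).

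NRT1.5 and PHO1, which load nitrate and phosphate into the xylem, were called lower. NRT1.5 was at 2198, 1606, 1634 and 1284 CPM in line 308 and 2452, 2524, 2582 and 3211 CPM in Col-0 (log2 fold change -0.68 ± 0.15, adjusted p = 0.022), and PHO1 differed by -0.43 ± 0.10 (adjusted p = 0.029). Each was called in 3 of the 8 fits. Of 23 tested nitrogen genes 3 were lower and 1 was higher, where 4.12% of all tested genes were lower and 2.52% higher. Those lower were NRT1.5, the high-affinity transporter NRT2.5 and the regulator HHO2, and none was called in all 8 fits. NRT2.5 had low CPM (means of 0.0531 in line 308 and 0.339 in Col-0). It was called in 2 of the 8 fits, and HHO2 in 1. The nitrite reductase NIR1 was higher (0.44 ± 0.08, adjusted p = 0.0081) and was called in all 8. PHO1 was the only 1 called of 24 tested phosphate starvation genes (4.17%), close to the 4.12% of all tested genes. DR4, a protease inhibitor-like protein of roots, had the highest CPM of those called lower, at 4234, 4561, 4094 and 4282 CPM against 5698, 6158, 6607 and 6685 CPM (-0.55 ± 0.08, adjusted p = 0.0021).

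The study examined 31 genes by name for lipid, clock and defence pathways. Of these 27 were tested and 6 were called, where 6.46% of all tested transcripts were called in either direction. The study chose part of the 31 on the same samples, so this count is not independent evidence. Beside FKF1, ELF3, TOC1 and RPP4 these were KCS2 (-0.46, adjusted p = 0.039), which lengthens fatty acids for suberin, and the suberin exporter ABCG20 (-0.55, adjusted p = 0.038). With MYB93 (-0.31, adjusted p = 0.026) they were the 3 called of 22 tested suberin and Casparian strip genes (13.6%), where 4.12% of all tested genes were lower. All 3 were lower, and none was called in all 8 fits that left out a library. The suberin enzymes GPAT5 (-0.24) and CYP86A1 (-0.08) were not called.

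The steepest decreases outside the pathways above were of genes with little known function. AT3G22121, a natural antisense transcript of AT3G22120, was at 0.071, 0.142, 0.142 and 0 CPM in line 308 and at 1.66, 2.24, 1.65 and 1.83 CPM in Col-0 (log2 fold change -4.25 ± 0.42, adjusted p = 2.90e-04). It was 1 of 11 antisense transcripts called lower (1.89%), with 2 called higher (0.343%), of 583 tested, where 4.12% of all tested genes were lower and 2.52% higher. AT4G35690, annotated with a domain of unknown function, was at 0.284, 0.142, 0.0709 and 0.0705 CPM against 0.554, 1.54, 2.3 and 2.13 CPM (-3.44 ± 0.57, adjusted p = 0.0054). Transcript AT2G05310.2, 1 of 2 of its gene, differed by -4.16 ± 0.56 (adjusted p = 0.0016). AT5G15780, an extensin-like cell wall protein, had 3 counts over line 308 and 44 over Col-0, a ratio of 14.7 (95% counting interval 4.73 to 74.2), and was called in 4 of the 8 fits that left out a library.

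BGLU22 and TCTP were called among transcripts with high CPM. BGLU22, a root β-glucosidase, was at 1697, 1379, 1523 and 1404 CPM in line 308 against 1111, 888, 1090.4 and 1226 CPM in Col-0 (log2 fold change 0.48 ± 0.11, adjusted p = 0.022). TCTP, a growth protein conserved across eukaryotes, was at 2813, 2909, 2854 and 3031 CPM against 3641, 3514, 3623 and 3679 CPM (-0.32 ± 0.06, adjusted p = 0.015). In neither gene did the ranges overlap, and the calls were made in 5 and 6 of the 8 fits that left out a library, respectively.

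In the remaining lists few or no genes were called, where 2.52% of all tested genes were higher and 4.12% lower. Of 15 indole glucosinolate genes 1 was higher (CYP81F1) and 1 lower (IGMT1, -0.86 ± 0.14, adjusted p = 0.0056). Of 16 low-oxygen genes the alcohol dehydrogenase ADH1 was higher (0.64 ± 0.16, adjusted p = 0.042), and the pyruvate decarboxylase PDC2 (-0.71 ± 0.10, adjusted p = 0.0018) and HUP26 were lower. No call was made among 11 aliphatic glucosinolate, 7 sulfur deficiency, 12 root hair and 9 ribosome biogenesis genes. Among annotated processes with at least 20 tested genes, response to oxidative stress had 11 higher and 7 lower of 113, defence response 8 higher and 9 lower of 193, defence response to fungus 5 higher and 1 lower of 43, defence response to bacterium 4 higher and 8 lower of 61, response to water deprivation 1 higher and 9 lower of 49, and protein folding 0 higher and 13 lower of 145, where 2.56% of annotated genes were higher and 4.54% lower.

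**Figure D4:**
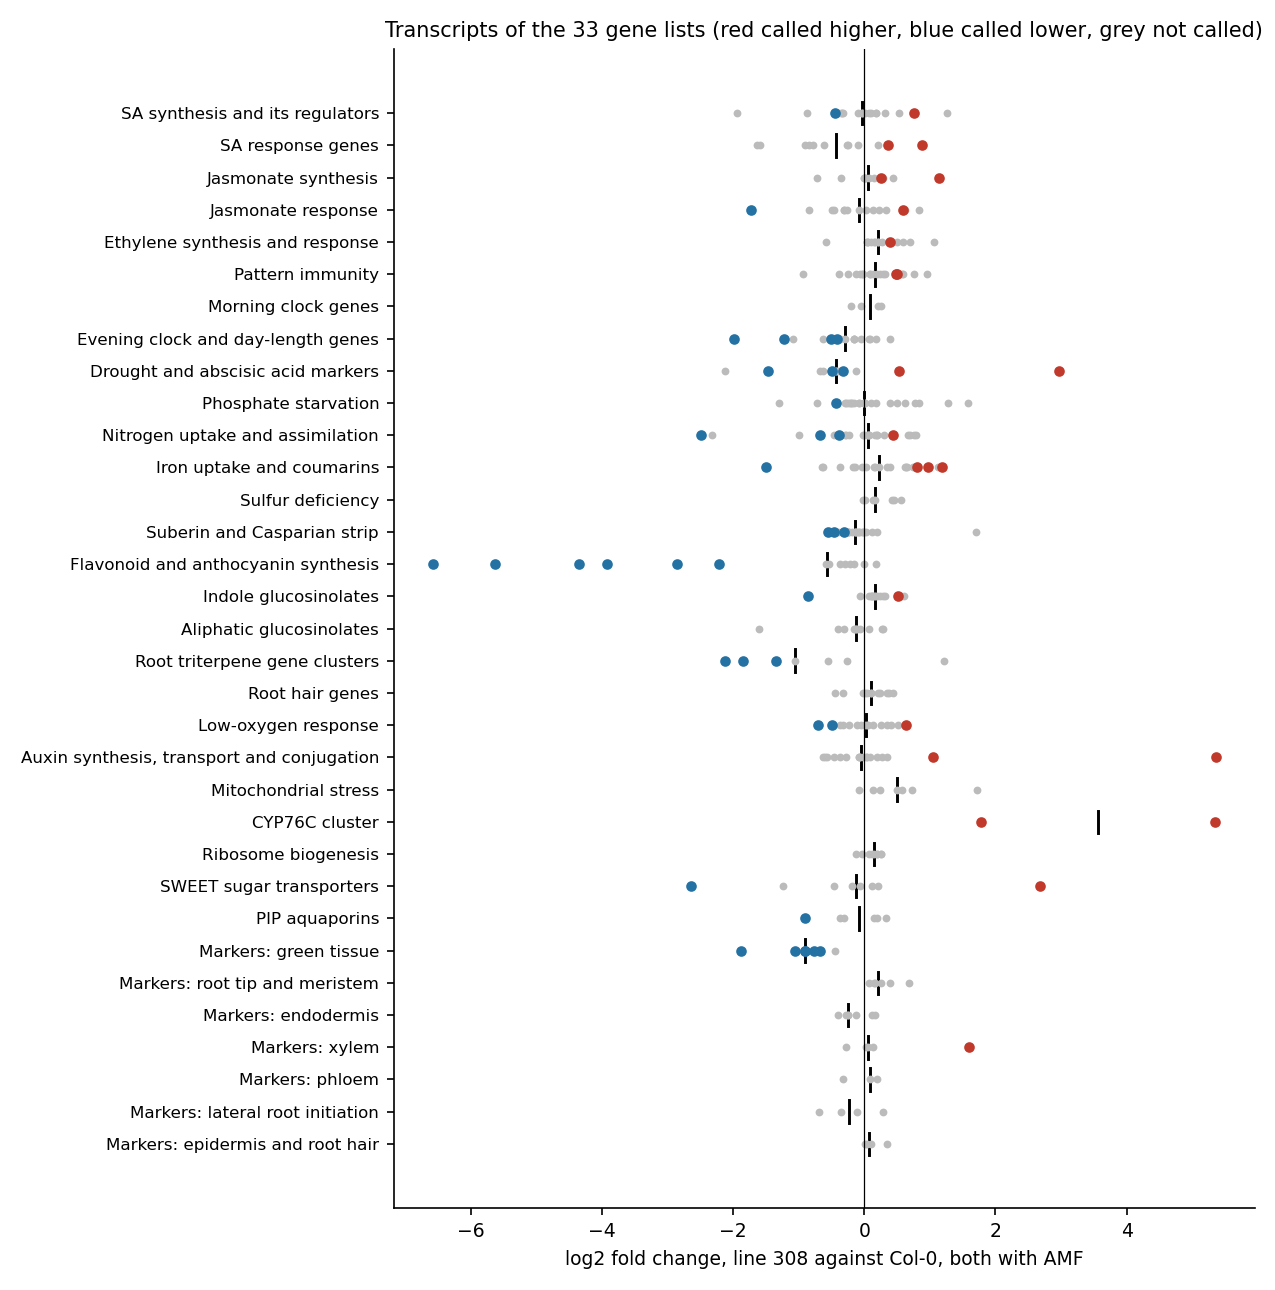
Each row is 1 of 33 gene lists, with the log2 fold change between line 308 and Col-0, both with AMF, of each tested transcript (red called higher, blue called lower, grey not called) and the list's median as a black bar. The lists for flavonoids and anthocyanins (median -0.56), root triterpenes (-1.06) and green tissue (-0.90) have only blue called members. The same holds for evening clock genes (-0.30), suberin and the Casparian strip (-0.14), phosphate starvation and PIP aquaporins. Most lists have medians near 0.

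Called genes lay on all 5 chromosomes in similar shares, 2.2% to 2.81% of tested genes higher and 3.74% to 4.63% lower. In 6 places 3 neighbouring tested genes were called in the same direction. They include the light-harvesting genes CAB3, LHCB1.1 and CAB1 on chromosome 1, and AT5G24460, PRR5 and AT5G24490 on chromosome 5. The only run of genes called higher was BETA-TIP, AT1G17830 and ABCG11 on chromosome 1. On chromosome 4, 1 annotated transcript of UBQ10, the gene whose promoter drives IPD3Min, was higher (AT4G05320.4, 2.41 to 2.77 CPM against 0.277 to 0.431 CPM, log2 fold change 2.91 ± 0.23, adjusted p = 1.14e-04). It is 1 of 8 annotated transcripts of that gene. Its log2 fold change was 3.12 without AMF (adjusted p = 9.97e-04), 2.24 on LN medium (adjusted p = 0.0052) and 1.89 in line 310 (adjusted p = 0.15). Whether reads from the construct, which carries the same promoter, were counted for this transcript was not tested.

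The same comparison without AMF used 8 other libraries and called 138 transcripts higher (0.815%) and 177 lower (1.05%), 1.86% in all. Of the 1093 transcripts called with AMF 92.2% had the same sign there, against 65.3% of all transcripts tested. There were 100 that were called higher in both, which are 24.1% of the 415 with AMF and 72.5% of the 138 without. A further 76 were called lower in both, 11.2% of the 678 and 42.9% of the 177, and 0 were called in opposite directions. The interaction of line and AMF was called for 0 of 16925 transcripts (0.0%) by edgeR's quasi-likelihood test. Before adjustment 1272 had a p under 0.05, and DESeq2 called 21, so that no transcript's difference between line 308 and Col-0 was shown to depend on AMF by the main test. A difference called in 1 treatment only is therefore not shown to differ between treatments.

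Without AMF, TAR1 (6.25, adjusted p = 1.60e-04), CYP76C2 (4.85, adjusted p = 9.97e-04), SCPL19 (4.57), NADP-ME1 (3.36), NAC032 (1.75), SUS3 (1.35), YUC9 (1.22), FKF1 (-1.66), PRR5 (-1.02), TOC1 (-0.68), TIP2;2 (-1.39) and TIP2;3 (-1.65) were called in the same direction as with AMF. Other genes had smaller values there and were not called. F6'H1 was at 0.14 (adjusted p = 0.83), GLP9 at 0.13, WRKY33 at -0.19, Prx37 at 0.16, DFR at -3.03 (adjusted p = 0.16) and CAB1 at -0.73 (adjusted p = 0.19). Of the list of SA response genes 2 were called lower without AMF and the median was -1.03, with PR5 at -2.32 (adjusted p = 0.0025). The interaction was not called for any of these genes.

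**Figure D5:**
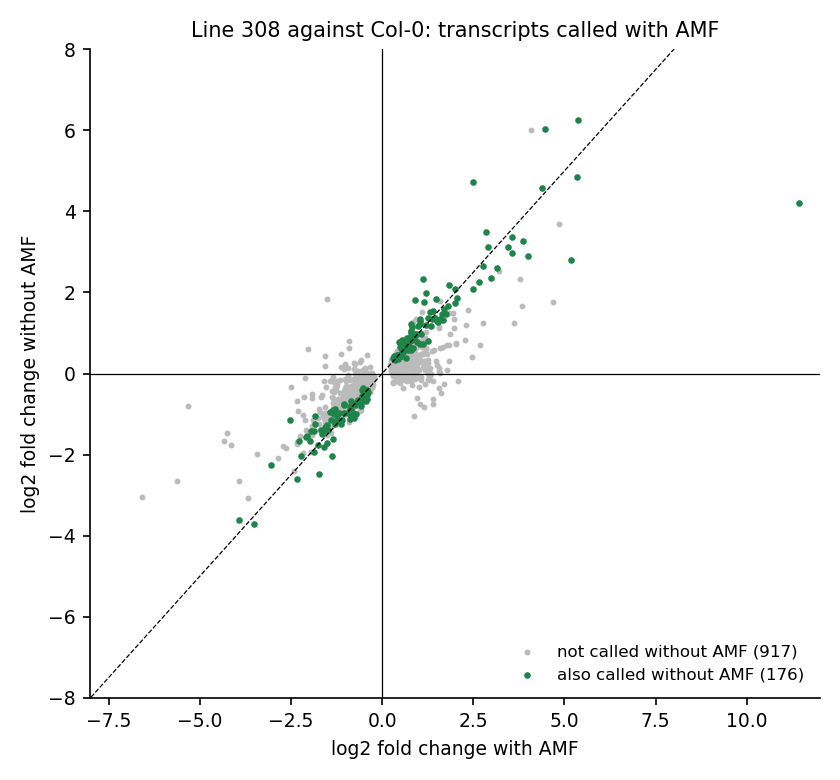
Each point is 1 of the 1093 transcripts called with AMF, placed by its log2 fold change between line 308 and Col-0 with AMF and in the separate libraries without AMF. The dashed line marks equal values, and the 176 transcripts also called without AMF (green) lie in the 2 quadrants of equal sign.

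Line 310 was compared with the same 4 Col-0 libraries, so its values are given side by side only. In line 310 with AMF 5 transcripts were called (0.0295%), 4 higher (0.0236%) and 1 lower (0.00591%), with AT1G75945, CYP76C2, AT1G27565 and the coumarin enzyme S8H higher and CCL lower. CYP76C2 was at 13.2 to 47.2 CPM in line 310 and had a log2 fold change of 5.55, beside 5.34 in line 308. TAR1 had 4.74 (adjusted p = 0.15) beside 5.36, LEA4-5 had 2.60 (adjusted p = 0.12) beside 2.97, FKF1 had -1.35 (adjusted p = 0.11) beside -1.99, and F6'H1 had 0.97 (adjusted p = 0.16) beside 0.97. Values further apart were those of SCPL19 (-0.36 in line 310 beside 4.38), NDA1 (0.36 beside 2.77), AT3G02480 (0.39 beside 3.55), DFR (-0.46 beside -6.58), NAC032 (0.19 beside 1.16) and SUS3 (-0.31 beside 1.05). Whether the lines differ was not tested. AT1G27565 was at 15.7 to 16.6 CPM in line 310 and at 1.21 to 4.89 CPM in line 308, where Col-0 had 1.08 to 1.83 CPM.

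On LN medium with AMF, line 308 differed from Col-0 in 1429 transcripts (8.44%), 581 higher (3.43%) and 848 lower (5.01%), in other libraries. Of the 1093 transcripts called on 1/2 MS with AMF 67.9% had the same sign on LN medium, against 53.6% of all tested, and 232 were called in the same direction and 22 in the opposite one. CYP76C2 (4.65, adjusted p = 4.46e-06), TAR1 (4.46), LEA4-5 (1.78), NAC032 (1.4), SUS3 (1.22), FKF1 (-0.92), TIP2;3 (-1.57) and DFR (-4.39, adjusted p = 0.033) were called in the same direction. HUP26 (-0.50 on 1/2 MS, 1.06 on LN) and the noncoding RNA AT2G03875 (-0.36 and 0.88) were called in opposite directions on the 2 media. F6'H1 was at -0.0037 and CCL at 0.57 on LN medium, neither of them called.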

How the data were processed

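Strand-specific poly-A RNA-seq libraries of pooled Arabidopsis roots were sequenced, 30 in all, of which 8 make the comparison reported here. The deposited values are raw counts, without normalization, of the read pairs on each annotated transcript. The authors made them by cleaning reads with SOAPnuke, separating plant, fungal and construct reads with BBSplit and counting with featureCounts 2.0.1 on Araport 11 with the reverse-stranded setting. Pairs that overlapped more than 1 transcript were not counted, so transcripts of genes with several isoforms are understated. How pairs that match near-identical copies at separate positions were counted was not established here. The submitters' processing notes also name HISAT2 and DESeq2 and the build TAIR10. Coordinates follow that build, and the RefSeq sequence TAIR10.1 was used for promoters, annotated processes and families. Levels were computed as CPM of the library total over the tested transcripts, adjusted by the TMM factor of the library. These factors were computed within each comparison, so levels of the other groups were scaled separately from those of the 8 main libraries.

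Groups came from the sample labels. Transcripts that reached 10 counts in any of the 30 libraries were tested with edgeR 4.0.16 (limma 3.58.1, R 4.3.3), TMM normalization and the quasi-likelihood test, fitted on the groups compared, with Benjamini-Hochberg adjustment over 16925 transcripts and a threshold of 0.05. The labels do not say whether libraries come from separate sowings, so p-values measure the spread between these libraries. Totals of 13185910 to 14328336 counts make counting error small for abundant transcripts. Where a group held 1 to 3 counts, the ratio is given with an exact 95% interval, and a group at 0 was set to 3 counts. Both cover counting error only. On 3 simulated data sets of 16925 transcripts made for this comparison, 94% to 95% of the 4-fold and 67% to 78% of the 2-fold changes were recovered, with 8 to 15 false calls. The counts were drawn from the type of model that edgeR fits. Changes were placed only in transcripts with a mean of 10 counts or more, so the recovery does not describe transcripts below that level.

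Named transcripts were the 10 largest called increases and decreases (mean of 10 counts or more in the higher group, groups not overlapping), the 5 called with the highest mean CPM per direction, the called members of 33 gene lists (at most 6 a list, or the 2 largest where none was called), and the genes the study lists by identifier, 126 transcripts in all. A few of them are not reported here. The comparison, lists and rule were chosen with earlier results of these data known. The annotated processes, the families, the motifs and 30 further transcripts were chosen after the values were seen, among them ABF4, AT3G02480, BBX15, BETA-TIP, CAB1, CCL, CUC1, GBSS1, GLP9, NAC032, NADP-ME1, NDA1, OCT1, Prx37, PSBR, SUS3, TIP2;2, TIP2;3, UBQ10 and WRKY59. Results were recomputed with DESeq2 1.42.0, with a common dispersion and the likelihood-ratio test of edgeR (as in the study's methods), with 2 other normalizations, with 2 other filters, with all 30 libraries in 1 fit, with a block for the replicate number, with gene-level sums of the counts and without each library in turn. Tables were handled in Python 3.11.15 with pandas 2.3.3, numpy 2.4.6 and scipy 1.17.1, and figures were drawn with matplotlib 3.10.9.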

Additional observations from a re-analysis of the deposited data

Results flagged for a closer look

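Within the groups of 4 libraries, 9 of 144 values of the called named transcripts had 1 library far from the other 3 by Dixon's criterion, where chance gives about 1 in 20. In line 308, the nitrate and phosphate regulator HHO2 was highest in replicate 1 (98.3 CPM, others 91.8 to 92.5), AT4G05380 was lowest in replicate 1 (1.85 CPM, others 2.96 to 3.19), TET4 was lowest in replicate 2 (0.425 CPM, others 0.847 to 0.922), TIP2 (AT3G26520) was lowest in replicate 2 (1145 CPM, others 1552 to 1633), the lectin gene AT1G78850 was highest in replicate 3 (2889 CPM, others 2399.8 to 2417), and VND7 (0.423 CPM, others 0.851 to 0.923) and AT2G03875 (1724 CPM, others 1968 to 1990.4) were lowest in replicate 4. In Col-0, TT19 was highest in replicate 3 (5.25 CPM, others 2.24 to 2.43) and AT1G78850 was lowest in replicate 1 (1252 CPM, others 1873 to 1962).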

How the results depend on the processing

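No result reversed under any alternative run. With AMF, DESeq2 called 661 higher, and the common-dispersion test called 797 higher and 1102 lower. Without AMF, DESeq2 called 326 higher and 573 lower, the common-dispersion test 542 and 948, no filter 213 and 420, and the fit on all 30 libraries 275 and 313. For the interaction, DESeq2 called 21 and the common-dispersion test 567. Leaving out 1 library at a time gave 230 to 697 higher and 352 to 902 lower with AMF, 54 to 272 higher and 47 to 437 lower without AMF, and 0 to 43 for the interaction, where the 43 came without Col-0 replicate 1 with AMF. The share of calls with the same sign without AMF ran from 83.2% to 95.7% over these fits and was 83.8% at an unadjusted p under 0.05. The cause of these shifts was not tested.

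With AMF, leaving out line 308 replicate 2, 3 or 4 gave 274, 238 or 249 higher, leaving out Col-0 replicate 2 or 4 gave 257 or 272, and leaving out line 308 replicate 3 or 4 gave 373 or 390 lower. The replicate numbers are not stated to mark a shared batch. Deviations from the group means of same-numbered libraries correlated at 0.185, 0.222, 0.0935 and -0.0048 with AMF and at 0.157, -0.058, 0.067 and 0.176 without AMF, so the numbers were not taken as pairs. With the replicate number as a block, 409 were called higher and 617 lower with AMF, 296 lower without AMF and 0 for the interaction. Among the 126 named transcripts, DESeq2 ended 7 calls and added 2, the fit on all 30 libraries ended 28 and added 1, and the block ended 9 and added 1. Of the 83 calls 47 were made in all 8 fits that left out a library. For 5MAT, SIG4, APK3, TET4 and HSD6, a few counts in 1 group leave the size of the ratio uncertain within the wide intervals given.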
